A study of Mus musculus with 4 samples.

Results

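The genes described here are 33 genes of glycolysis and of the response to low oxygen, read in RNA sequencing of cultured fibro-adipogenic progenitors (FAPs). They are the rows of the deposited gene sheet whose symbol matched a list of glucose transporters, glycolytic enzymes, pyruvate and lactate genes, oxygen-sensing genes and genes induced by hypoxia. All 33 were found among 28649 genes, and all 33 passed the filter on low counts that left 14507 genes for testing. FAPs are mesenchymal cells of skeletal muscle that give rise to fat and scar tissue, here sorted by the surface protein Sca1. The miR-206 KO genotype had 2 libraries and the wild type, C57Bl/6, also 2. Cells of both genotypes were expanded in DMEM with 20% fetal bovine serum, 10% horse serum and 5 ng/ml FGF. RNA was taken after a further 48 hours in DMEM that held 10% horse serum alone. The sources used here do not give the age of the mice, the strain background of the KO mice or how the allele was made, so strain and the missing miR-206 cannot be told apart. Whether replicates are different animals or cultures is not stated either, and the p-values cover no more than the spread between these libraries, which may be technical.

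Glycolysis splits glucose into pyruvate in the cytosol, and lactate dehydrogenase turns pyruvate into lactate, which monocarboxylate transporters carry out of the cell. When oxygen is short, the prolyl hydroxylases of the Egln family no longer mark the HIF-alpha proteins for degradation, and HIF then binds promoters and enhancers at a short core motif and raises many glycolytic genes together with Vegfa, Bnip3, Ddit4 and collagen prolyl hydroxylases. HIF-1-alpha is controlled mainly as a protein, so its transcript level is not a measure of its activity. In mesenchymal cells the same genes also answer to growth factors, amino acid and stress signals. miR-206 is a microRNA of skeletal muscle that lowers the transcripts it pairs with, and its own transcript was not analysed here.

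Library totals ran from 30550235 to 44561117 estimated counts. FAP markers were abundant in each library: the 8 listed genes summed to between 5824 and 6935 TPM (the level of a transcript, scaled to depth and transcript length so that genes can be compared), with ranges of 6348 to 6473 in KO and 5824 to 6935 in wild type. None of the 8 passed the test. A positive log2 fold change of KO over wild type was seen in 6 of the 8, against 49.6% of all tested genes. Their median was 0.31, beside -0.0018 over all tested genes. Pdgfra, the receptor that defines FAPs, had 1959 and 1902 CPM in KO and 1455 and 1520 in wild type (log2 fold change 0.38, edgeR adjusted p = 0.130), and the matrix gene Dcn had a log2 fold change of 0.49 (edgeR adjusted p = 0.159). Ly6a, which encodes Sca1, the protein used for the sort, had 657 and 732 CPM in KO and 882 and 1234 in wild type (log2 fold change -0.61, edgeR adjusted p = 0.238). The part of these differences in the members' values was not tested. The cultures also held transcripts of other cell types. The 15 muscle-lineage genes found, from Myod1 to Acta1, summed to 2246 and 270.2 TPM in KO replicates 1 and 2 and to 4320 and 2502 TPM in wild type replicates 1 and 2. None of the 15 was at 0 in a library, and in 11 of the 15 the KO libraries both lay below the wild-type pair in CPM (counts scaled to library size), as in 24.4% of all tested genes. The 9 adipocyte genes summed to 135 and 79.6 TPM in KO against 709 and 299 in wild type. In the 8 of them that were tested, the KO pair lay below the wild-type pair in CPM, against the same 24.4%. By the test described below for the members, 1 of the 8, the lipid droplet gene Cidec, fell (log2 fold change -3.93, edgeR adjusted p = 0.0468), where 0.186% of all tested genes did. The remaining gene, Lep, was at 0 in at least 1 library. In such bulk samples fewer cells of a type and less RNA per cell cannot be told apart. The summed TPM of the 6 proliferation markers overlapped between the genotypes, from 173 to 191 in KO and from 183 to 209 in wild type. In TPM the KO pair lay below the wild-type pair for 2 of them, Ccnb1 and Cdk1, against 23.2% of all tested genes. In CPM all 6 overlapped. Their log2 fold changes were negative for 5 and positive for 1, where 49.6% of all tested genes were positive.

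**Figure D1:**
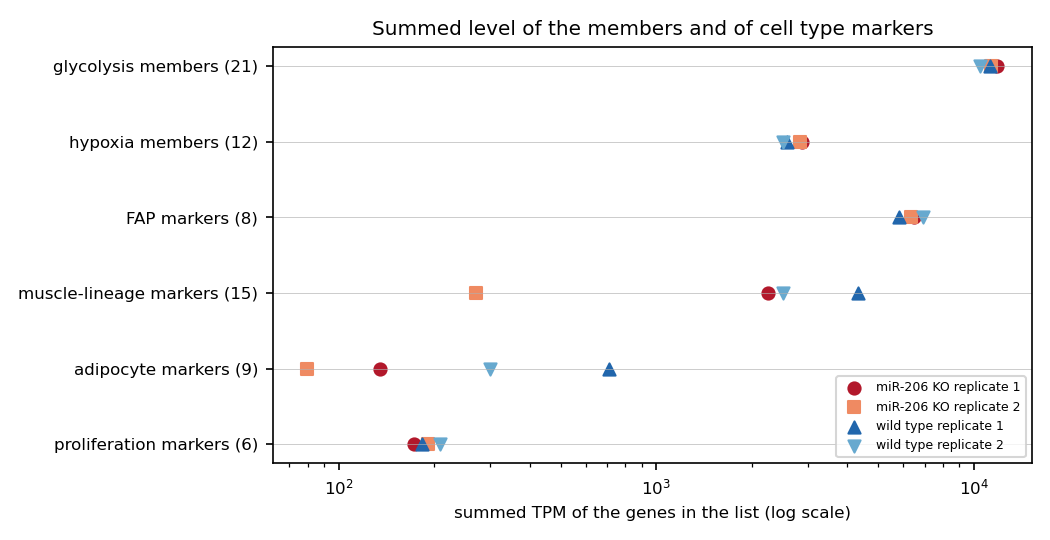
Summed TPM of the members and of marker lists, on a log scale, with 1 point per library. The glycolysis and hypoxia members lie close together in the 4 libraries, while muscle-lineage markers run from 270.2 to 4320 TPM and adipocyte markers from 79.6 to 709 TPM.

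Among the 33 genes, the highest levels were those of glycolytic enzyme transcripts. The 33 genes together took 1.61% and 1.55% of the listed TPM in KO and 1.53% and 1.41% in wild type. On the TPM scale, 17 of the 33 had at least 100 TPM in the wild type, and 3 had under 10. The 17 include hypoxia genes such as P4ha1, Hif1a and Vegfa. The share of all tested genes at these levels was not computed, so the counts cannot be read as particular to the 33. Gapdh, which oxidises glyceraldehyde 3-phosphate, had the top wild-type level at 2999 ± 217 TPM (SD, n = 2). Aldoa, the aldolase that splits fructose 1,6-bisphosphate, followed at 1747 ± 198 TPM, then Eno1 (enolase) at 1285 ± 32.0, Pkm (pyruvate kinase) at 1220 ± 21.3 and Mif, a cytokine with tautomerase activity, at 1060 ± 91.6. Eno1 and Pkm differed by slightly more than the sum of their SDs, while Gapdh and Aldoa were far apart. At the low end stood the glucose transporter gene Slc2a3 at 4.15 ± 0.923 TPM, Pfkfb4 at 6.18 ± 0.222 and the oxygen sensor gene Egln3 at 7.48 ± 0.467. Between them, the hypoxia factor Hif1a had 195 ± 7.99 TPM and its classic target Vegfa 174 ± 1.12 TPM, levels that differed by more than their SDs.

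**Figure D2:**
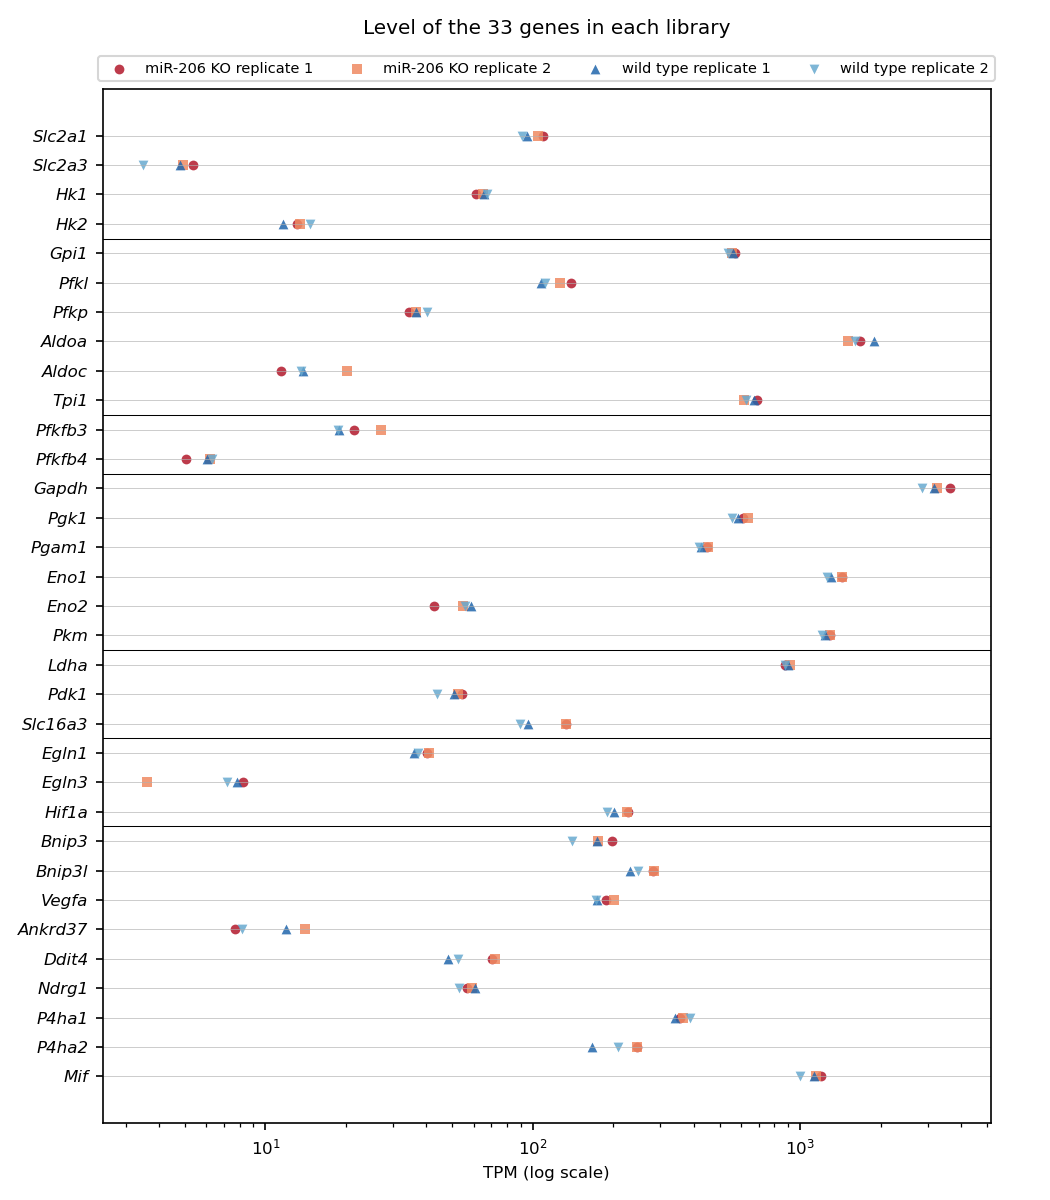
TPM of each of the 33 genes in the 4 libraries, on a log scale, in blocks by role from glucose transport at the top to hypoxia-induced genes at the bottom. Levels run from 4.15 TPM for Slc2a3 to 2999 TPM for Gapdh in the wild type, and the 4 points of most genes nearly coincide beside that range.

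The question of the comparison was how KO FAPs differ from wild-type FAPs in these transcripts. None of the 33 genes passed the test over all genes (edgeR quasi-likelihood test with Benjamini-Hochberg adjustment, adjusted p of 0.05, two-sided), where 0.427% of all 14507 tested genes did. By the same test 11 of the 33 had an unadjusted p under 0.05, all 11 on the higher side in KO. Over all tested genes 14.3% had such a p, 7.16% on the higher side and 7.18% on the lower. DESeq2 called 3 of the 33, Ddit4, Slc16a3 and Pfkfb3, against 4.81% of all genes, and limma-voom called 0 against 0.0965%. Without the filter on low counts edgeR called 3 of the 33, against 2.46% of all genes, and with the replicate number as a block 2, Ddit4 and Slc16a3, against 1.83%. The log2 fold change of KO over wild type was positive for 26 of the 33 and negative for 7, with a median of 0.14, beside 49.6% positive and a median of -0.0018 over all tested genes. CPM, here with library sizes scaled by edgeR's TMM factors, put both KO libraries above both wild-type libraries for 18 of the 33, against 23.8% of all genes, and below them for 3 (Hk1, Pfkp and Eno2), against 24.4%. In TPM the KO pair was above for 19, against 21.7% of all genes, and below for 2, against 23.2%. The sizes were small: among the 11 genes, the fitted KO level was from 14.4% to 42.3% above that of the wild type. For 32 of the 33 the 95% confidence interval of the log2 fold change stayed within 1 on either side of 0, and Egln3 was the exception.

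**Figure D3:**
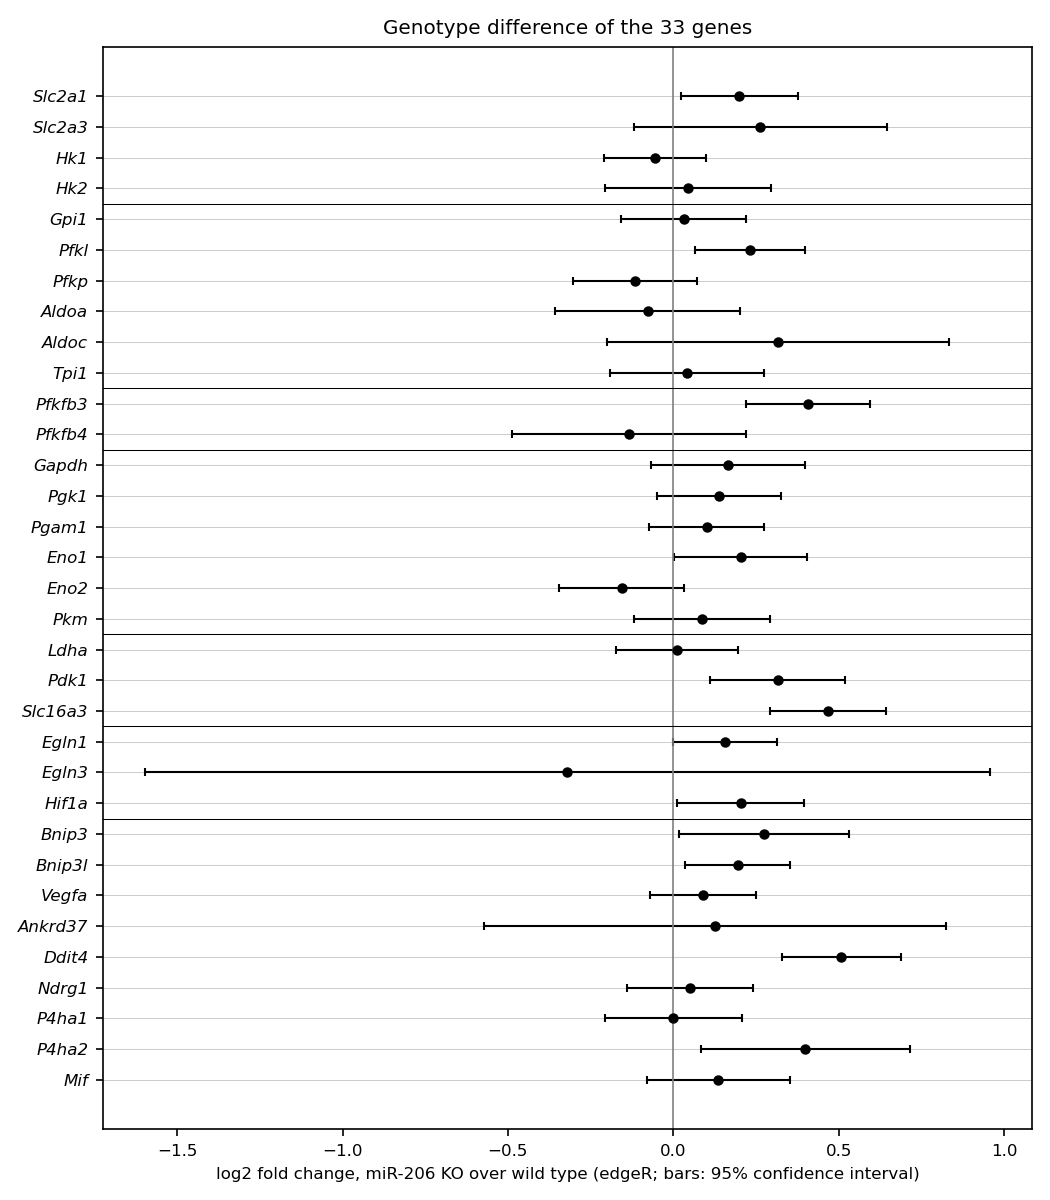
Log2 fold change of miR-206 KO over wild type for the 33 genes from edgeR, as points with unadjusted 95% confidence intervals as bars, in the same blocks by role. The intervals of 11 genes lie above 0, none lies below 0, and none of the 33 genes passed the adjusted test.

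Ddit4, Slc16a3 and Pfkfb3 had the smallest p-values of the 33. Ddit4 encodes REDD1, a hypoxia- and stress-induced inhibitor of mTORC1. In the KO its level was 68.9 and 68.4 CPM, and in the wild type 46.4 and 50.2 CPM. The KO pair was nearly identical and lay above the wild-type pair, with a log2 fold change of 0.51 (SE 0.07, 95% interval 0.33 to 0.69, edgeR adjusted p = 0.0608). Slc16a3 encodes MCT4, the lactate exporter of glycolytic cells. It had 145 and 135 CPM in KO, while the wild type had 103 and 98.9 CPM, again without overlap, with a log2 fold change of 0.47 (SE 0.07, edgeR adjusted p = 0.0696). Pfkfb3 encodes the kinase that makes fructose 2,6-bisphosphate, the activator of phosphofructokinase. Its KO libraries had 58.1 and 63.9 CPM and its wild-type libraries 46.4 and 45.5 CPM. The groups did not overlap, and the log2 fold change was 0.41 (SE 0.08, edgeR adjusted p = 0.0907). The genotype difference was larger than the gap within either pair of replicates for 20 of the 33 genes, these 3 among them. The share of all tested genes with such a difference was not computed, so the count of 20 cannot be read as particular to these genes. For these 3 the log2 fold change lay between 0.34 and 0.57 in the 15 alternative fits of each. Those fits reused the same libraries, from which the 3 genes were picked by their p-values. Their constant sign is therefore no separate support. Over those fits the adjusted p ran from 0.00017 to 0.224 for Ddit4, from 8.1e-05 to 0.205 for Slc16a3 and from 0.0106 to 0.42 for Pfkfb3.

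The promoters of these 3 genes are shown beside that of Ldha, a textbook HIF target whose libraries overlapped between the genotypes, so that genes at either end of the p-values can be read together. Each line gives the 250 bases before the RefSeq start on GRCm38.p6, 5′ to 3′ on the gene's strand, and capitals mark the HIF core ACGTG or GCGTG or its reverse complement CACGT or CACGC. The windows are chr10:59951771-59952020 on the minus strand for Ddit4, chr11:120948817-120949066 on the plus strand for Slc16a3, chr2:11553930-11554179 on the minus strand for Pfkfb3 (1 of its 2 listed starts) and chr7:46845554-46845803 on the plus strand for Ldha (also 1 of 2).
Ddit4: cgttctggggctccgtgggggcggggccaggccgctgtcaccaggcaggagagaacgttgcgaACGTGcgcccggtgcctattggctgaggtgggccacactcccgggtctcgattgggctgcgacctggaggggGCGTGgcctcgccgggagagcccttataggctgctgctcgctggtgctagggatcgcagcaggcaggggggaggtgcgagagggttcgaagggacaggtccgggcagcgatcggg
Slc16a3: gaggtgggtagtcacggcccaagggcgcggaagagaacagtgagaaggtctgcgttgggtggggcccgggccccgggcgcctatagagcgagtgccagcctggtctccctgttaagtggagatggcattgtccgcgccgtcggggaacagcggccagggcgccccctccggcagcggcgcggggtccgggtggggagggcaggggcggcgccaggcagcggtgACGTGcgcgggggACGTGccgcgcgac
Pfkfb3: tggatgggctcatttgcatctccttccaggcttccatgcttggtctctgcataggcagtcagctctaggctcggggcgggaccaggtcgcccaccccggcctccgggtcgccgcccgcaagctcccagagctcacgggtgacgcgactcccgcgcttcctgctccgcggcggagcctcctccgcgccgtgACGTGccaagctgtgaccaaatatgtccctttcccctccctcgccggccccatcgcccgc
Ldha: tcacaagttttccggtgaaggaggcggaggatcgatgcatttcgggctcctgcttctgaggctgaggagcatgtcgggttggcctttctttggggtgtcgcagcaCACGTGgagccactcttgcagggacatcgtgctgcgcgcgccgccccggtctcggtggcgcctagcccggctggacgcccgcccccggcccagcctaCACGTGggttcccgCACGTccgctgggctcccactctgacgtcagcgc
Ddit4 held 2 cores, whose first bases lay at -187 and -115 from the start, and Slc16a3 held 2 at -27 and -14. Pfkfb3 held 1 at -60 in the window printed and 3 in that of its other start, chr2:11502091-11502340, at -122, -53 and -52, with 1 E-box CACGTG. The Ldha window printed held 5, at -145, -144, -48, -47 and -34, the first 4 of them forming 2 copies of the E-box CACGTG, which other factors also bind and in which the core is read on both strands. The window of the other Ldha start, chr7:46846832-46847081, held 1 core at -59. Of the 33 genes 30 had a RefSeq promoter window by symbol, and Slc2a3, Bnip3l and Ndrg1 had none in that table. In windows of 300 bases, 250 before the start and 50 after it, a core on either strand was present for 27 of the 30 genes and in 33 of their 41 windows. The share over all 32851 windows was 43.8%, and 7.15% held CACGTG against 4 of the 41. Of the 10 matched genes with an unadjusted p under 0.05 all 10 held a core, and of the 20 others 17 did; Gpi1, Tpi1 and Eno2 held none. A match is a run of letters and not a measured binding site.

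**Figure D4:**
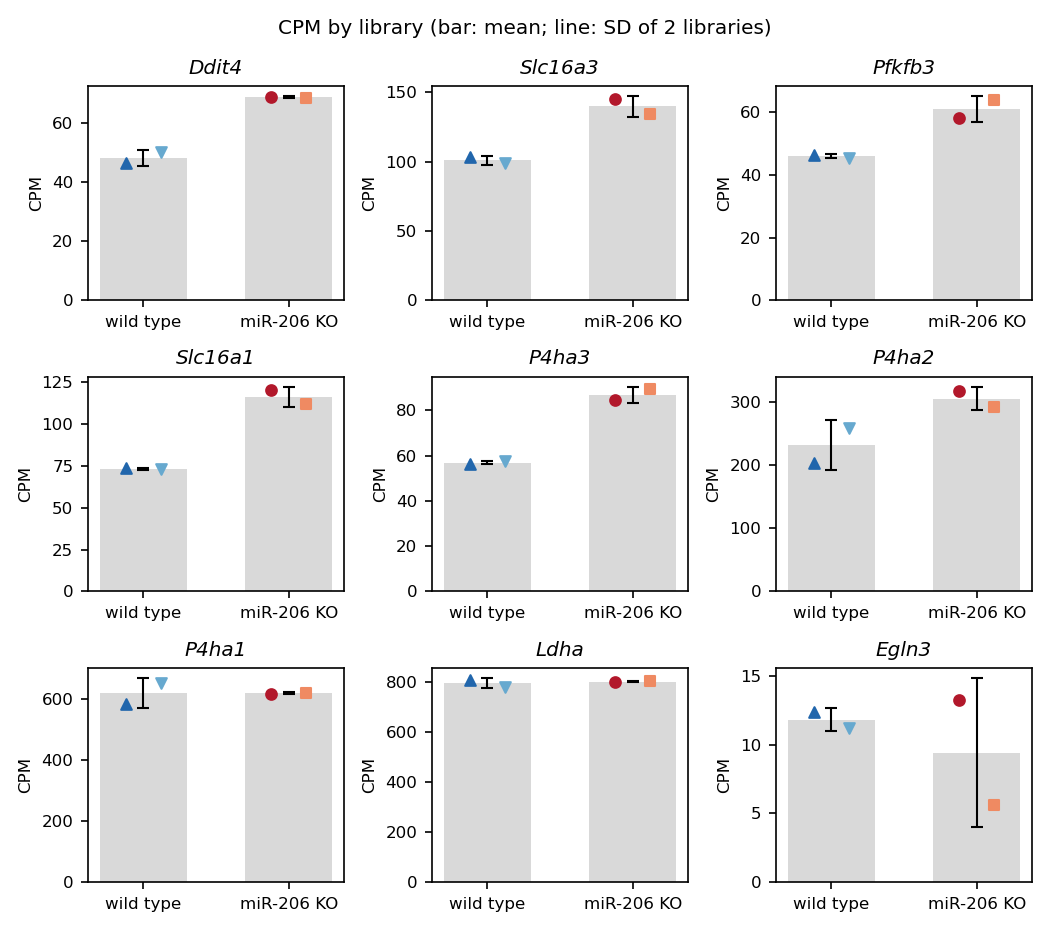
CPM of 9 genes by library, with bars for the genotype mean and lines for the SD of 2 libraries. Ddit4, Slc16a3, Pfkfb3, Slc16a1, P4ha3 and P4ha2 have both KO points above both wild-type points, P4ha1 and Ldha overlap between genotypes, and the KO points of Egln3 lie at 13.2 and 5.60 CPM.

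Glucose entry and trapping showed small differences. Slc2a1, the GLUT1 transporter that serves most proliferating cells, had 170 and 158 CPM in KO and 147 and 139 CPM in wild type. Its libraries did not overlap between genotypes, and its log2 fold change of 0.20 (SE 0.07) did not pass the test (edgeR adjusted p = 0.297). Slc2a3, the high-affinity GLUT3 transporter, had a log2 fold change of 0.26 with a 95% interval from -0.12 to 0.65. Hexokinases phosphorylate the glucose that enters. Hk1 had 146.03 and 146.28 CPM in KO and 153 and 150.4 CPM in wild type, so that both KO libraries lay just below, at -0.05 log2 (interval -0.21 to 0.10). The inducible Hk2 had 44.84 and 44.97 CPM in KO, between the wild-type values of 39.4 and 47.7. On the TPM scale Hk1 made up between 80.8% and 82.7% of all hexokinase transcripts in the 4 libraries.

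Phosphofructokinase is the main control point of glycolysis, and Pfkl, its liver-type subunit, was the most abundant form. It had 238 and 227 CPM in KO and 195 and 200.2 CPM in wild type, a log2 fold change of 0.23 (SE 0.07, edgeR adjusted p = 0.209) without overlap. The platelet-type subunit gene Pfkp had lower values in KO, with 57.4 and 59.7 CPM in KO and 60.5 and 66.4 in wild type (-0.11 log2, interval -0.30 to 0.07). Pfkp shares 748 exon bases with Pitrm1 on the opposite strand, whose count was up to 163% of its own, and since the use of strand is not given its counts are uncertain. The muscle-type subunit Pfkm, no member of the list and named after its values were seen, had 67.9 and 55.7 CPM in KO and 86.8 and 64.7 in wild type, with overlap. As shares of phosphofructokinase TPM, Pfkl made up 65.4% and 64.6% in KO and 55.2% and 58.6% in wild type, and Pfkm 18.4% and 16.8% against 26.002% and 20.2%. Neither share overlapped between genotypes, although the wild-type libraries were themselves apart, and the shares were not tested. Shares within a sum depend on each other, so these are not separate results. Pfkm was highest in wild type replicate 1 and lowest in KO replicate 2, as the muscle-lineage sums were, and the part of muscle cells in the shares was not tested.

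Of the other upper enzymes, Gpi1, the glucose-6-phosphate isomerase gene, had 659 and 628 CPM in KO and 644 and 615 in wild type, and the genotypes overlapped. Tpi1, triose phosphate isomerase, had 614 and 541 CPM against 586 and 536. Aldoa had 1368 and 1202 CPM against 1465 and 1246, so each genotype's replicate 1 was above its replicate 2 and the groups overlapped. Gpi1 and Tpi1 had the same order of replicates, so it was not particular to Aldoa. That order was also that of the muscle-lineage sums, whose part in it was not tested. Aldoc, the brain-type aldolase, had 12.4 and 18.8 CPM in KO and 12.8 and 12.2 in wild type, a single high library in KO replicate 2. Without that library its log2 fold change of 0.32 became -0.0099. Pfkfb4, the sister of Pfkfb3, had 10.2 and 12.2 CPM against 12.1 and 12.6, with overlap and no difference past the test (-0.13 log2, edgeR adjusted p = 0.733).

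In the steps from Gapdh to Pkm, 5 of 6 genes had both KO libraries above the wild-type pair in CPM, where 23.8% of all tested genes did, and the remaining gene had them below, where 24.4% did. None of the 6 passed the test. Gapdh had 2518 and 2318 CPM in KO and 2237 and 2076 in wild type, a log2 fold change of 0.17 (interval -0.07 to 0.40). Its copies matter here: 84 listed genes held a stretch of at least 200 bases at 95% identity or more to Gapdh, most of them processed pseudogenes. Their counts came to 4.27% of the Gapdh count in KO replicate 1 and 9.52% in KO replicate 2, and to 9.28% and 8.58% in the wild type. With these counts added, the log2 ratio of the genotype means was 0.14 in place of 0.17, and the KO libraries, at 2626 and 2539 CPM, were still above the wild-type ones, at 2444 and 2254 CPM. Among the copies, Gm10359, Gm12671 and Gm7336 were listed with identical counts, each 722 and 1838 in KO and 2010 and 2121 in wild type. Each of them entered the sum, and whether they repeat the same reads is not stated. Pgk1, phosphoglycerate kinase and the first step that yields ATP, had 653 and 662 CPM in KO and 616 and 579 in wild type. Pgam1, phosphoglycerate mutase, had 482 and 471 CPM against 449 and 440. Pkm had 1887 and 1817 CPM against 1775 and 1712, with a log2 fold change of 0.09 (interval -0.12 to 0.29).

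The enolase genes gave values in both directions. Eno1, the ubiquitous form, had 1684 and 1631 CPM in KO and 1470 and 1409 in wild type, at 0.20 log2 (SE 0.08, edgeR adjusted p = 0.345). Eno2, the neuronal form, had 51.1 and 54.1 CPM in KO and 56.1 and 61.0 in wild type, at -0.16 log2 (interval -0.35 to 0.03). Eno3, the muscle form and 1 of the muscle-lineage markers, had 43.9 and 11.8 CPM in KO and 90.2 and 53.7 in wild type. Eno1 made up 93.5% and 95.3% of enolase TPM in KO and 88.0% and 91.0% in wild type. In the same way Pgam1 made up 94.4% and 98.7% of mutase TPM in KO and 87.3% and 92.5% in wild type, the rest being the muscle form Pgam2, which had 11.8 and 2.42 CPM in KO and 26.6 and 14.6 in wild type. Pgam2 is also a muscle-lineage marker, and both Eno3 and Pgam2 are counted in the muscle-lineage sums. Like those sums, Eno3 and Pgam2 were highest in wild type replicate 1 and lowest in KO replicate 2. Since the sums contain them, the shared order is no separate support. Neither passed the test (edgeR adjusted p of 0.632 and 0.627).

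**Figure D5:**
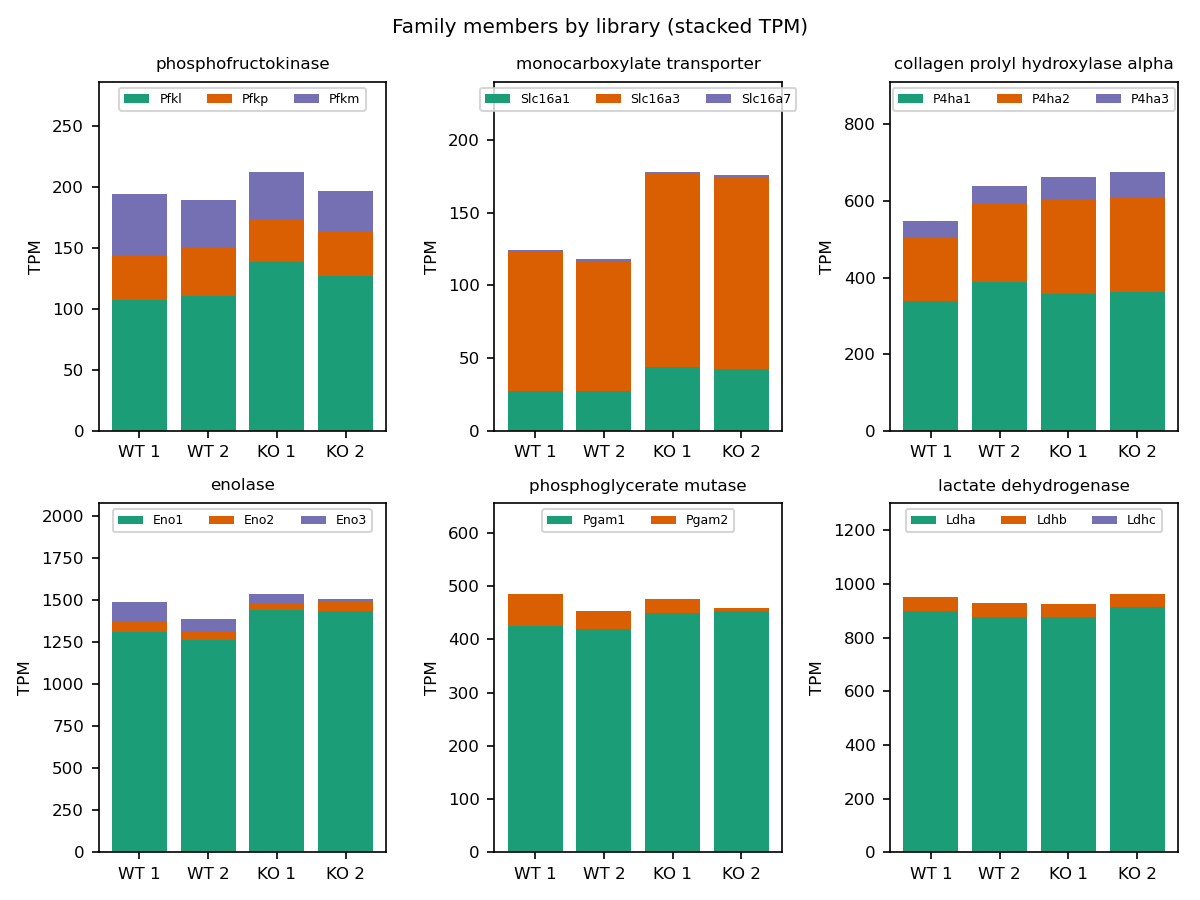
Stacked TPM of the genes in 6 enzyme or transporter families in each library. The muscle forms Eno3 and Pgam2 are lower in both KO libraries, and Pfkm overlaps between genotypes. The monocarboxylate transporter genes Slc16a1 and Slc16a3 are taller in KO. The lactate dehydrogenase bars are level at 925 to 965 TPM.

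The genes of pyruvate and lactate handling held both a gene whose groups overlapped closely and a gene among those of smallest p. Ldha, which makes lactate from pyruvate, had 801 and 805 CPM in KO and 811 and 783 CPM in wild type. The genotypes overlapped, and the 95% interval of its log2 fold change ran from -0.17 to 0.20. Ldha made up between 94.6% and 94.8% of lactate dehydrogenase TPM in each library, the rest being Ldhb. Pdk1, the kinase that shuts pyruvate dehydrogenase and so keeps pyruvate from the mitochondrion, had 92.8 and 84.3 CPM in KO and 74.5 and 67.9 in wild type. That was a log2 fold change of 0.32 (SE 0.08, edgeR adjusted p = 0.174) without overlap. The exporter gene Slc16a3 was given above. Its sister Slc16a1, which encodes MCT1 and is no member, rose: it had 120 and 112 CPM in KO and 73.6 and 72.9 in wild type, a log2 fold change of 0.67 (SE 0.07, edgeR adjusted p = 0.0292). That call was lost when any library was left out: the edgeR adjusted p was 0.125 and 0.0968 without KO replicates 1 and 2, and 0.0750 and 0.0921 without wild type replicates 1 and 2, with log2 fold changes between 0.62 and 0.72. The monocarboxylate transporter genes Slc16a1, Slc16a3 and Slc16a7 together had 178 and 176 TPM in KO against 124 and 118 TPM in wild type. Within that sum the share of Slc16a3 was 74.9% and 75.4% in KO and 77.4% and 75.9% in wild type.

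The 3 genes of oxygen sensing gave log2 fold changes in both directions, and none passed the test. Hif1a had 633 and 618 CPM in KO and 563 and 522 CPM in wild type, a log2 fold change of 0.20 (SE 0.08, edgeR adjusted p = 0.319) without overlap. It made up between 97.1% and 97.4% of the TPM of the 3 HIF-alpha genes, Epas1 and Hif3a holding the rest. Egln1, which encodes the main HIF prolyl hydroxylase PHD2, had 86.2 and 85.2 CPM in KO and 76.1 and 77.7 in wild type (0.16 log2, interval -0.0010 to 0.31). Egln3, whose product PHD3 is itself induced by HIF, had 13.2 and 5.60 CPM in KO and 12.4 and 11.2 in wild type. Its 95% interval, from -1.60 to 0.96 log2, was too wide to tell a difference from none. KO replicate 2 stood alone, and without it the log2 fold change of -0.32 became 0.17. The same library was the lowest in muscle-lineage sums, and the part of muscle cells in the Egln3 value was not tested.

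The genes that hypoxia induces gave mixed values, with none past the test. Bnip3 and Bnip3l, receptors for the removal of mitochondria, both had KO libraries above wild-type ones: Bnip3 had 157 and 136 CPM against 130.3 and 113 CPM, and Bnip3l had 161 and 165 CPM against 144 and 141 CPM. Their log2 fold changes were 0.27 (SE 0.11, edgeR adjusted p = 0.317) and 0.19 (SE 0.07, edgeR adjusted p = 0.265). Vegfa, the angiogenic growth factor gene, had 201 and 195 CPM in KO and 184 and 188 CPM in wild type, at 0.09 log2 (interval -0.07 to 0.25). Ndrg1, a stress-induced gene used as a hypoxia marker, had 98.0 and 99.9 CPM in KO, between the wild-type values of 100.9 and 90.1. Ankrd37, a small HIF target, had the fewest reads of the 33 at 3.10 and 4.39 CPM in KO and 3.84 and 3.02 in wild type. Its replicates were 0.50 log2 apart in KO and 0.35 in wild type, and its interval ran from -0.57 to 0.82 log2. Ankrd37 shares 349 exon bases with Lrp2bp and 57 with Ufsp2, both on the opposite strand. Ufsp2 had counts of 1539 and 1520 in KO and 1382 and 1933 in wild type. Since the use of strand is not given, the Ankrd37 counts are uncertain. Of the 33 genes, 12 shared exon bases with another gene. Mif had 308 and 280 CPM against 282 and 253, with overlap in CPM. It did not overlap in TPM, at 1192 and 1149 in KO against 1125 and 996 in wild type.

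The collagen prolyl 4-hydroxylases, which HIF induces and which stabilise the collagen triple helix, differed from gene to gene. P4ha1, the most abundant alpha subunit, had 617 and 620.3 CPM in KO and 584 and 653 in wild type, a log2 fold change of -7.0e-05 (interval -0.21 to 0.21). P4ha2 had 318 and 293 CPM in KO and 204 and 259 in wild type, at 0.40 log2 (SE 0.13, edgeR adjusted p = 0.259). Its wild-type libraries were 0.35 log2 apart, and the log2 fold change was 0.24 with wild type replicate 1 left out and 0.58 with replicate 2 of that genotype left out. P4ha3, no member, rose from 56.4 and 57.5 CPM in wild type to 84.5 and 89.3 in KO, a log2 fold change of 0.61 (SE 0.07, edgeR adjusted p = 0.0330). This call too was lost when any library was left out, with an edgeR adjusted p of 0.125 and 0.156 without the KO replicates and of 0.0980 and 0.101 without the wild-type ones. As shares of the TPM of the 3 genes, P4ha1 made up 53.7% and 53.8% in KO and 62.0% and 60.8% in wild type, P4ha2 36.9% and 36.3% against 30.5% and 32.6%, and P4ha3 9.34% and 9.94% against 7.54% and 6.67%. None of the 3 shares overlapped between genotypes, and the shares were not tested. Shares within a sum depend on each other, so these are not separate results. P4ha1 itself overlapped in TPM, at 357 and 363 in KO and 339 and 388 in wild type. Of all tested genes, 21.7% had the KO pair above the wild-type pair in TPM and 23.2% had it below.

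Of 49 further genes of glycolysis and pyruvate use 41 were tested, and 1, Slc16a1, rose while 0 fell. Of all tested genes 0.241% rose and 0.186% fell. By edgeR 5 of the 41 had an unadjusted p under 0.05, 3 higher and 2 lower. Over all tested genes 14.3% had such a p, 7.16% higher and 7.18% lower. The median log2 fold change was -0.04, with 17 positive and 24 negative, beside -0.0018 and 49.6% positive over all tested genes. Pdhb, a subunit of pyruvate dehydrogenase, had 40.8 and 41.1 CPM in KO and 55.0 and 50.9 in wild type, at -0.37 log2 (edgeR adjusted p = 0.108). Pygl, the liver-type glycogen phosphorylase gene, had 80.2 and 76.4 CPM against 46.2 and 58.3, at 0.58 log2 (edgeR adjusted p = 0.118). Slc2a4, the insulin-responsive transporter of muscle and fat, had 0.926 and 0.786 CPM against 3.34 and 1.57, at -1.51 log2 (edgeR adjusted p = 0.252). It was lower in KO as the muscle-lineage and adipocyte sums were, and their part in it was not tested. Of the most abundant, Bsg, the chaperone of MCT1 and MCT4, had 1072 and 931 CPM in KO and 897 and 882 in wild type. Pdha1 had 206 and 209 against 208 and 215. The phosphoglucomutase gene that the sheet lists as Pgm2, named Pgm1 in GENCODE M21, had 165 and 156 against 145 and 149.7. None of these 3 passed the test, with log2 fold changes of 0.17, -0.03 and 0.12.

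Of 55 further hypoxia response genes, all tested, 1, P4ha3, rose and 0 fell, where 0.241% of all tested genes rose and 0.186% fell. By edgeR 19 of the 55 had an unadjusted p under 0.05, 14 higher and 5 lower. Over all tested genes 14.3% had such a p, 7.16% higher and 7.18% lower. The median log2 fold change of the 55 was 0.01, beside -0.0018 over all tested genes. Lox, which crosslinks collagen, had 9739 and 11129 CPM against 6307 and 6560, at 0.70 log2 (edgeR adjusted p = 0.0705). Angptl4, an inhibitor of lipoprotein lipase, had 462 and 424 CPM against 329 and 340, at 0.41 log2 (edgeR adjusted p = 0.0969). Among the most abundant, the chemokine gene Cxcl12 had 4071 and 3894 CPM in KO and 3193 and 3151 in wild type, and P4hb, the beta subunit of the collagen prolyl hydroxylases, had 3061 and 3137 against 2322 and 2645. In each of these 4 genes both KO libraries lay above both wild-type libraries, and none passed the test. Lox and Angptl4 were named for their small p-values, so their separation follows from that choice. Of all 55 genes, 16 had the KO pair above in CPM and 12 had it below, against 23.8% and 24.4% of all tested genes.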

How the data were processed

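Libraries made with a stranded mRNA kit, per the labels' protocols, were read from cultured FAPs of miR-206 KO and wild-type mice. The authors deposited estimated counts and TPM per gene, and FastQC, kallisto and mm10 are named in the submitters' processing notes. How transcripts were joined into genes, whether strand was used, and the releases of tools and annotation are not stated there. The deposited counts were rounded to whole numbers, filtered with edgeR's filterByExpr, scaled by TMM and tested by edgeR's quasi-likelihood test with robust estimation (edgeR 4.0.16, limma 3.58.1, R 4.3.3), with Benjamini-Hochberg adjustment over 14507 genes and a threshold of 0.05, two-sided. SEs were taken from the F statistic, and intervals are 95%. DESeq2 1.42.0, limma-voom, limma on log2(TPM + 1), other scalings, no filter, the replicate number as a block and each library left out were alternatives. The code was tested on simulated data. The deposited TPM values were used for levels and shares. Near-identical copies were sought in GENCODE M21 transcripts with BLAST 2.17.0. Every member is named. Of the other glycolysis and hypoxia lists, genes past the threshold are named, with the 3 of smallest p and the 3 of highest level. A gene that this rule names is not reported here. The isoform partners were chosen after their values were seen. Members and lists were chosen with earlier results of these data known. Replicates differed by more than sampling noise. With 2 libraries a genotype, small changes are not resolved.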

Additional observations from a re-analysis of the deposited data

How the results depend on the processing

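Of the 15 alternatives to each result, all kept a positive median log2 fold change of the members: 0.096 with library size alone, where the median of all genes was -0.04, and 0.11 to 0.18 with 1 library left out. Members called numbered 3 with no low-count filter, 3 by DESeq2, 2 with the replicate block and 0 in the others, from 0 to 0 with 1 library left out. The block paired libraries by a replicate number that the labels do not tie to a shared animal or day. Replicate deviations of the genotypes correlated at r = 0.39 over 10914 genes. Calls over all genes, 62 as reported, numbered 133 with library size alone, 491 with no filter, 698 by DESeq2, 14 by limma-voom, 11 without robust estimation, 7 on log2(TPM + 1), 6 on log2(TPM + 0.1), 6 with the TPM filter, 265 with the replicate block and 6 to 76 with 1 library left out. Calls among the other glycolysis genes, 1 as reported, numbered 3 with no filter, 3 by DESeq2, and 0 by limma-voom, without robust estimation, in the 3 TPM fits and with any library left out. Those among the other hypoxia genes, also 1, numbered 2 with library size alone, 2 with upper-quartile scaling, 10 with no filter, 13 by DESeq2, 4 with the replicate block, and 0 by limma-voom, without robust estimation, in the 3 TPM fits and with any library left out. The causes were not tested. Log2 fold changes near 0 turned sign: Gpi1 became -0.0081 and Ldha -0.028 with library size alone, and P4ha1 became 0.013 with upper-quartile scaling, 0.0036 by limma-voom and 0.0022 with the replicate block. With 1 library left out, they ran from -0.19 to 0.044 for Aldoa, -0.0099 to 0.59 for Aldoc, -0.14 to 0.36 for Ankrd37, -1.07 to 0.17 for Egln3, -0.0025 to 0.069 for Gpi1, -0.086 to 0.19 for Hk2, -0.014 to 0.037 for Ldha, -0.028 to 0.14 for Ndrg1, -0.078 to 0.083 for P4ha1 and -0.051 to 0.13 for Tpi1. A lone library was there assumed to vary like the pair of the other genotype.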

Other observations

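Transcripts of blood and endothelial cells were scarce in every library. The endothelial markers summed to 13.2 and 10.3 TPM in KO and to 15.5 and 16.1 TPM in wild type. The hematopoietic markers summed to 3.50 and 4.55 TPM in KO and to 3.89 and 3.43 TPM in wild type. Markers of pericytes, cells of the vessel wall, summed to 28.0 and 42.6 TPM in KO and to 20.8 and 35.1 TPM in wild type.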
